A study of Homo sapiens with 28 samples.

Results

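The mitochondrial chaperones and proteases described here are 6 genes, HSPD1, HSPE1, HSPA9, TRAP1, LONP1 and CLPP, of 19974 protein-coding genes on chromosomes 1 to 22 and X. They were taken by symbol from the RefSeq annotation of GRCh38.p14, together with every peak that overlapped the gene span plus 5 kb on each side. The group was chosen by its CTCF peaks, for 1 listed in hypoxia alone at the shared ends of HSPD1 and HSPE1, so that difference is given as a description with no test. All 6 genes were found, and because the windows of HSPD1 and HSPE1 hold the same peaks at their shared ends, the genes form 5 distinct loci.

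The data are chromatin immunoprecipitation sequencing (ChIP-seq) of T47D, an established luminal breast tumour cell line, in 28 samples. Of these, 16 were immunoprecipitated, in 8 groups of 2: H3K27ac (histone H3 acetylated on lysine 27), CTCF and ZHX2, each in hypoxia and in normoxia, and Flag in hypoxia in cells with PA ZHX2 or with WT ZHX2. The other 12 had no antibody, and 4 of them are titled Flag. Per the labels' protocols, cells infected with lentivirus were kept under hygromycin or puromycin selection; the oxygen level, the length of the hypoxia and the change that PA makes to ZHX2 are not given in the sources used here. The authors deposited 1 peak list per group, so no value below has a spread between replicates, the read depth is unknown, and no difference between lists could be tested.

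HSPD1 encodes the barrel-forming chaperonin of the mitochondrial matrix and HSPE1 the co-chaperonin that caps it, and both fold imported proteins. HSPA9 is the mitochondrial member of the HSP70 family, which pulls proteins through the inner membrane and helps them fold, and TRAP1 is the mitochondrial member of the HSP90 family. LONP1 is an ATP-dependent protease of the matrix that removes damaged proteins, and CLPP is the proteolytic chamber that works with the unfoldase CLPX. Several of these genes are known targets of the mitochondrial unfolded protein response. ZHX2 carries zinc fingers and homeoboxes and is known as a substrate of the VHL ubiquitin ligase, CTCF is the zinc finger protein that anchors chromatin loops and insulators, and H3K27ac marks active promoters and enhancers.

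HSPD1 lies on chromosome 2 at chr2:197486584-197500274, on the minus strand, and HSPE1 at chr2:197500379-197503449, on the plus strand. The genes stand head to head with 104 bases between their annotated ends, and the readthrough gene HSPE1-MOB4 begins at the same place as HSPE1. HSPA9 spans chr5:138553756-138575401, TRAP1 chr16:3658037-3717524 and LONP1 chr19:5691834-5720452, all on the minus strand, and CLPP spans chr19:6361531-6370242. Exons, introns and UTRs were not annotated here.

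RefSeq promoter windows of 300 bases, from 250 bases before to 50 bases after an annotated start, matched 5 of the 6 genes with 7 windows in all, and CLPP had no entry. For each of these genes 1 window is shown, in which a ZHX2 or CTCF summit fell or, for HSPA9, whose start was covered by peaks of both proteins. Another window of HSPD1, which overlaps that of HSPE1 and holds the same normoxia CTCF summit, and another of LONP1 are not shown. The windows are read 5′ to 3′ on the gene's own strand. Capitals mark the CTCF core letters CNAGNNGGC, the hypoxia response letters ACGTG and the heat shock letters TTCNNGAA or GAANNTTC, on either strand.
HSPD1, chr2:197499791-197500090, minus strand, start 197499840: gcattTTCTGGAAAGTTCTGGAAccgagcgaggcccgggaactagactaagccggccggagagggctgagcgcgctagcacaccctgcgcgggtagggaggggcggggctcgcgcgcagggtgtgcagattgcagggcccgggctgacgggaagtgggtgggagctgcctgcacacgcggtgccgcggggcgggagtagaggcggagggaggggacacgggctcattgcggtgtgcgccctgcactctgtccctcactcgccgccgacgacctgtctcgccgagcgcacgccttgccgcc
HSPE1, chr2:197500129-197500428, plus strand, start 197500379: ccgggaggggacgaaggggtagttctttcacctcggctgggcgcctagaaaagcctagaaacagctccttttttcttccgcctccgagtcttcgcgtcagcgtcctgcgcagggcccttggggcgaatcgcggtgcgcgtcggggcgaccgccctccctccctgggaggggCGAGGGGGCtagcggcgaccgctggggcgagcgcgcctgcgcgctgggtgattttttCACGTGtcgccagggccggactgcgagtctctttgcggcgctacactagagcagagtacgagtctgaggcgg
HSPA9, chr5:138575352-138575651, minus strand, start 138575401: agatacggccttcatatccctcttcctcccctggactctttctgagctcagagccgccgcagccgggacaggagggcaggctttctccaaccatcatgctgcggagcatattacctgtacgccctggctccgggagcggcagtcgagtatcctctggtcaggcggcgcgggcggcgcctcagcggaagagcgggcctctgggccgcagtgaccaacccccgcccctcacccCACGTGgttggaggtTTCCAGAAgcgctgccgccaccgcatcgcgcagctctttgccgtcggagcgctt
TRAP1, chr16:3717475-3717774, minus strand, start 3717524: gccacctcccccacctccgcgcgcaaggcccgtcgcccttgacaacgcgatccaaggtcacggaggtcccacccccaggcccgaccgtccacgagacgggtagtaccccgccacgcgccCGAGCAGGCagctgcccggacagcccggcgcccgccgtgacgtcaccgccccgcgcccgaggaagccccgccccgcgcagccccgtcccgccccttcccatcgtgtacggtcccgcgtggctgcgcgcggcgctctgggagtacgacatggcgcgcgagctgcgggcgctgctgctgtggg
LONP1, chr19:5720097-5720396, minus strand, start 5720146: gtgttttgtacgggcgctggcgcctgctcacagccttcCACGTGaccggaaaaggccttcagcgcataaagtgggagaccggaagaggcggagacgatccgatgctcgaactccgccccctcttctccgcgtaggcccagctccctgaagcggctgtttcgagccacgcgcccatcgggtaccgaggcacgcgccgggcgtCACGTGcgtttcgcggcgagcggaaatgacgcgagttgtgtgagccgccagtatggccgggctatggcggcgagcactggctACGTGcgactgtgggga

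All 5 printed windows are rich in G and C. The GC content was 70.7% in the HSPD1 window, 67.0% in HSPE1, 66.0% in HSPA9, 76.3% in TRAP1 and 65.7% in LONP1, beside a median of 58.7% over 34961 windows of the same length. The number of CpG dinucleotides ranged from 27 in HSPA9 to 45 in TRAP1, beside a median of 14. The HSPD1 window opens with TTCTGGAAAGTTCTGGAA at its bases 6 to 23, a run of 4 heat shock units spelled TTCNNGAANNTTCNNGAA; 9 of the 34961 windows (0.0257%) hold those letters, which were looked up after the values had been seen. The palindrome CACGTG, which contains ACGTG on both strands, was also looked up afterwards; it occurred in windows of HSPD1, HSPE1, HSPA9 and LONP1, in 4 of the 7 windows of these genes, and in 7.27% of all windows. The HSPD1 and HSPE1 matches are the same bases, in the overlap of the unshown HSPD1 window with that of HSPE1, and the CTCF core letters of both genes are likewise a single stretch. Such matches describe letters and are not binding sites. Among the letters searched on both strands, CNAGNNGGC occurred in 3 of the 7 windows (24.6% of all windows), ACGTG in 5 (21.4%), TTCNNGAA in 2 (7.73%) and GAANNTTC in 1 (6.79%). GCGTG occurred in 4 (36.6%), the Sp/KLF letters GGGCGG in 6 (45.0%), the NRF1 letters GCATGCGC in 1 (3.06%), and the CHOP-ATF4 letters TGATGNAA (3.62%) and the YY1 letters AAGATGG (5.84%) in 0. Of the 5 genes with a window, ZHX2 peaks overlapped a window at 5 in hypoxia and 4 in normoxia, beside 52.3% and 22.9% of all genes with a window, and CTCF peaks at 4 in hypoxia and 5 in normoxia, beside 48.4% and 49.7%. H3K27ac overlapped all 5 in hypoxia (64.8%) and in normoxia (64.0%), and Flag all 5 in PA cells (50.7%) and in WT cells (58.2%).

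Most members had peaks in all of the 8 lists. HSPD1, HSPE1, HSPA9, TRAP1 and LONP1 had a peak of every list within 5 kb of their spans, as did 31.3% of protein-coding genes. CLPP had peaks in every list other than ZHX2 in normoxia, so all 6 had a peak in these 7 lists, as did 49.8% of protein-coding genes. Within 5 kb, ZHX2 was listed at 6 members in hypoxia and at 5 in normoxia, beside 68.6% and 42.3% of all genes. CTCF and H3K27ac peaks lay at all 6 in hypoxia (83.6% and 75.9% of all genes) and at all 6 in normoxia (85.7% and 74.7%). Flag peaks lay at all 6 members in PA cells and in WT cells, beside 59.6% and 69.5% of all genes.

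The lists differed in length. ZHX2 had 32343 peaks in hypoxia and 14586 in normoxia, CTCF 77334 and 88248, H3K27ac 46713 and 42586, and Flag 16019 in PA cells and 31278 in WT cells. A peak was counted as shared when it overlapped the other list of its pair by at least 1 bp. Of all peaks, 27.4% of ZHX2 peaks in hypoxia and 62.6% in normoxia were shared, 93.0% and 82.3% of CTCF peaks, 80.6% and 89.1% of H3K27ac peaks, and 94.7% of PA and 48.5% of WT Flag peaks. The fold enrichment of a peak is the authors' value, and its percentile is the percent of peaks in its own list with a lower fold; neither is a change between lists. For cell type markers, H3K27ac peaks lay within 5 kb of 7 of 7 luminal marker genes in both conditions, and also of 3 of 4 basal and 3 of 4 immune or stromal marker genes. Such a peak lay at 75.9% of all genes in hypoxia and 74.7% in normoxia, so these counts hardly separate cell types.

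At the chaperonin pair, CTCF had 2 peaks in hypoxia and 1 in normoxia. In hypoxia, a CTCF peak at chr2:197499673-197500581 with a fold of 5.84 covered both annotated ends, and a further peak at chr2:197500904-197501324 with a fold of 9.09 lay inside HSPE1. In normoxia, a single CTCF peak at chr2:197500254-197500487 had a fold of 3.58. The peak inside HSPE1 was the one absent from the normoxia list, and the other overlapped its normoxia counterpart. That normoxia peak had a −log10 q of 8.86. It was no longer listed when the CTCF lists were taken at equal length, a setting added after seeing the data that shortened the normoxia list alone.

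The hypoxia-only peak was 421 bp wide and began 525 bp after the annotated start of HSPE1, with its summit 777 bp after that start, and its deposited −log10 q was 51.6. It overlapped a hypoxia H3K27ac peak and the Flag peak common to PA and WT cells, but no ZHX2 peak. Of 5382 hypoxia-only CTCF peaks, 99.4% had a lower fold and 33 a higher one, and their median fold was 4.28. Within its own list it was not a strong CTCF peak, at the 33.6 percentile of a list whose median fold was 19.0. Among the 1108 hypoxia-only CTCF peaks within 1 kb of an annotated gene end, 2 had a higher fold. The next above had a fold of 9.56 and the next below 8.69. Because the group was chosen for this peak, its places among the hypoxia-only peaks are a description and nothing is read from them.

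The nearest normoxia CTCF peak lay 416 bases away from the hypoxia-only peak. Of all hypoxia-only CTCF peaks, 36.3% lay less than 500 bp from a normoxia peak. With such neighbours counted as shared, a setting added after seeing the data, the HSPE1 peak was no longer hypoxia-only. The summits of the overlapping CTCF peaks also stood apart, 374 bp from each other: in hypoxia the summit at 197500004 lay 270 bp inside HSPD1, and in normoxia the summit at 197500378 lay 1 base before the start of HSPE1. The CTCF core letters CGAGGGGGC in the HSPE1 window, at its bases 172 to 180, fall within both of these peaks.

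**Figure D1:**
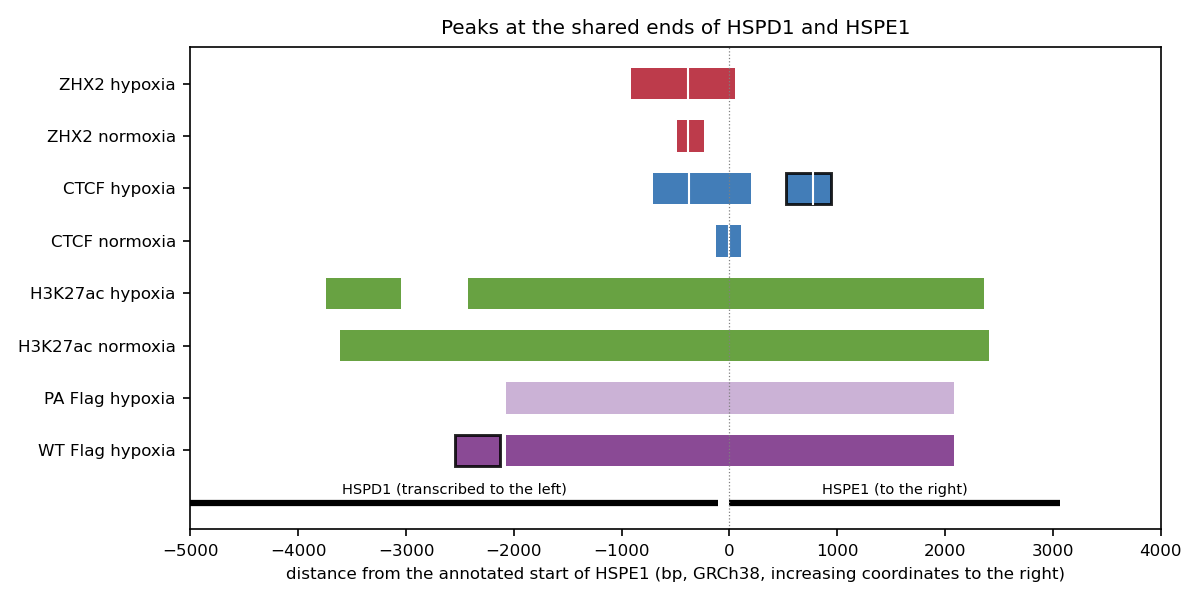
Peaks of the 8 lists at the shared ends of HSPD1 and HSPE1, by distance from the annotated start of HSPE1 in bp (x axis), with 1 row per list. White ticks are summits where the list gives them, and black outlines mark peaks with no overlap in the other list of the pair. The outlined CTCF peak in hypoxia has its summit 777 bp to the right of the start, and the outlined Flag peak is in the WT list.

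ZHX2 occupied the same stretch in both conditions. In hypoxia the ZHX2 peak at chr2:197499467-197500430 was 964 bp wide with a fold of 8.52, at the 97.9 percentile of its list. In normoxia the peak at chr2:197499897-197500145 was 249 bp wide with a fold of 3.74, at the 66.2 percentile. Their summits were 6 bp apart, and in hypoxia the ZHX2 and CTCF summits were 8 bp apart. Both ZHX2 summits and the hypoxia CTCF summit fall in the printed HSPD1 window. The heat shock run of that window lies within the ZHX2 peaks of both conditions and within the hypoxia CTCF peak, and outside the normoxia CTCF peak.

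H3K27ac covered the ends of both chaperonin genes in each condition. In hypoxia the main peak, chr2:197497957-197502745, was 4789 bp wide with a fold of 15.7, and a smaller peak beside it had a fold of 3.32. In normoxia 1 peak overlapped both, chr2:197496770-197502788, 6019 bp wide with a fold of 12.8. Toward the far end of HSPD1, the hypoxia list held 2 H3K27ac peaks with no normoxia overlap, with folds of 3.16 and 2.74. Flag had the same peak, chr2:197498303-197502464, in PA cells and in WT cells, and the WT list held a further peak of 421 bp that lay 52 bases from it.

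At the start of HSPA9 no CTCF peak was listed in hypoxia, whereas in normoxia a CTCF peak at chr5:138575104-138575435 had a fold of 4.81, at the 7.04 percentile, and no overlap in the hypoxia list. With the CTCF lists taken at equal length, a setting added after seeing the data, normoxia-only CTCF peaks lay at 0 members, so this difference was lost. That setting shortened the normoxia list alone, so it could only remove normoxia-only peaks. The normoxia summit lay 82 bp inside the gene. The strongest CTCF peak at HSPA9 lay outside the gene, with its near edge 3576 bases beyond the start in hypoxia and 3605 in normoxia; its fold was 91.3 in hypoxia and 147 in normoxia, and the summits were 13 bp apart. A CTCF peak inside the gene had a fold of 6.70 in hypoxia and 10.6 in normoxia.

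ZHX2 at the HSPA9 start was listed in both conditions. The hypoxia peak at chr5:138575156-138576515 had a fold of 6.38, at the 94.4 percentile, and its summit lay 516 bp upstream of the start. The normoxia peak at chr5:138575749-138576483 had a fold of 3.80, at the 68.5 percentile, with its summit 983 bp upstream. The CACGTG of the printed HSPA9 window, at bases 232 to 237, is covered by the hypoxia ZHX2 peak and the normoxia CTCF peak and not by the normoxia ZHX2 peak. ZHX2 also lay on the strong CTCF peak beyond the start, with a fold of 3.53 in hypoxia and 4.29 in normoxia, and 1 peak inside the gene with a fold of 2.74 was in the normoxia list alone. H3K27ac covered 14280 bp at HSPA9 in hypoxia and 11090 bp in normoxia, with highest folds of 17.1 and 21.5, and 2 of its hypoxia peaks, with folds of 2.73 and 2.83, had no normoxia overlap. The Flag peaks at HSPA9 were identical in PA and WT cells.

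TRAP1 held the same strong CTCF peaks in both conditions. The peak inside the gene had a fold of 193 at chr16:3689693-3691606 in hypoxia and 208 at chr16:3689862-3691062 in normoxia, with summits 18 bp apart and percentiles of 94.5 and 94.3. A peak in the neighbouring gene DNASE1, which encodes a secreted nuclease, had a fold of 118 in hypoxia and 199 in normoxia. At the TRAP1 start the CTCF peak was weak, with a fold of 4.06 in hypoxia and 6.95 in normoxia, and 1 peak inside the gene, chr16:3674573-3674815, with a fold of 5.42, was in the normoxia list alone. The CTCF core letters CGAGCAGGC of the TRAP1 window, at bases 120 to 128, lie within the normoxia CTCF peak at the start and outside the narrower hypoxia one.

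The one ZHX2 peak within 5 kb of TRAP1 lay at the start in each condition. It had a fold of 3.76 in hypoxia, with the summit 48 bp upstream of the start, and 4.02 in normoxia, with the summit 168 bp upstream. The percentile was 65.7 in the hypoxia list and 74.4 in the normoxia list, and the summits were 120 bp apart. H3K27ac at the start had a fold of 11.0 in hypoxia and 19.4 in normoxia, and 3 peaks near the far end, with folds of 2.63 to 2.95, were in the hypoxia list alone. Flag had a peak at the start, chr16:3716356-3718238, in PA and WT cells, and 2 further peaks in WT cells alone, of which chr16:3690580-3690823 lay on the CTCF peak inside the gene.

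**Figure D2:**
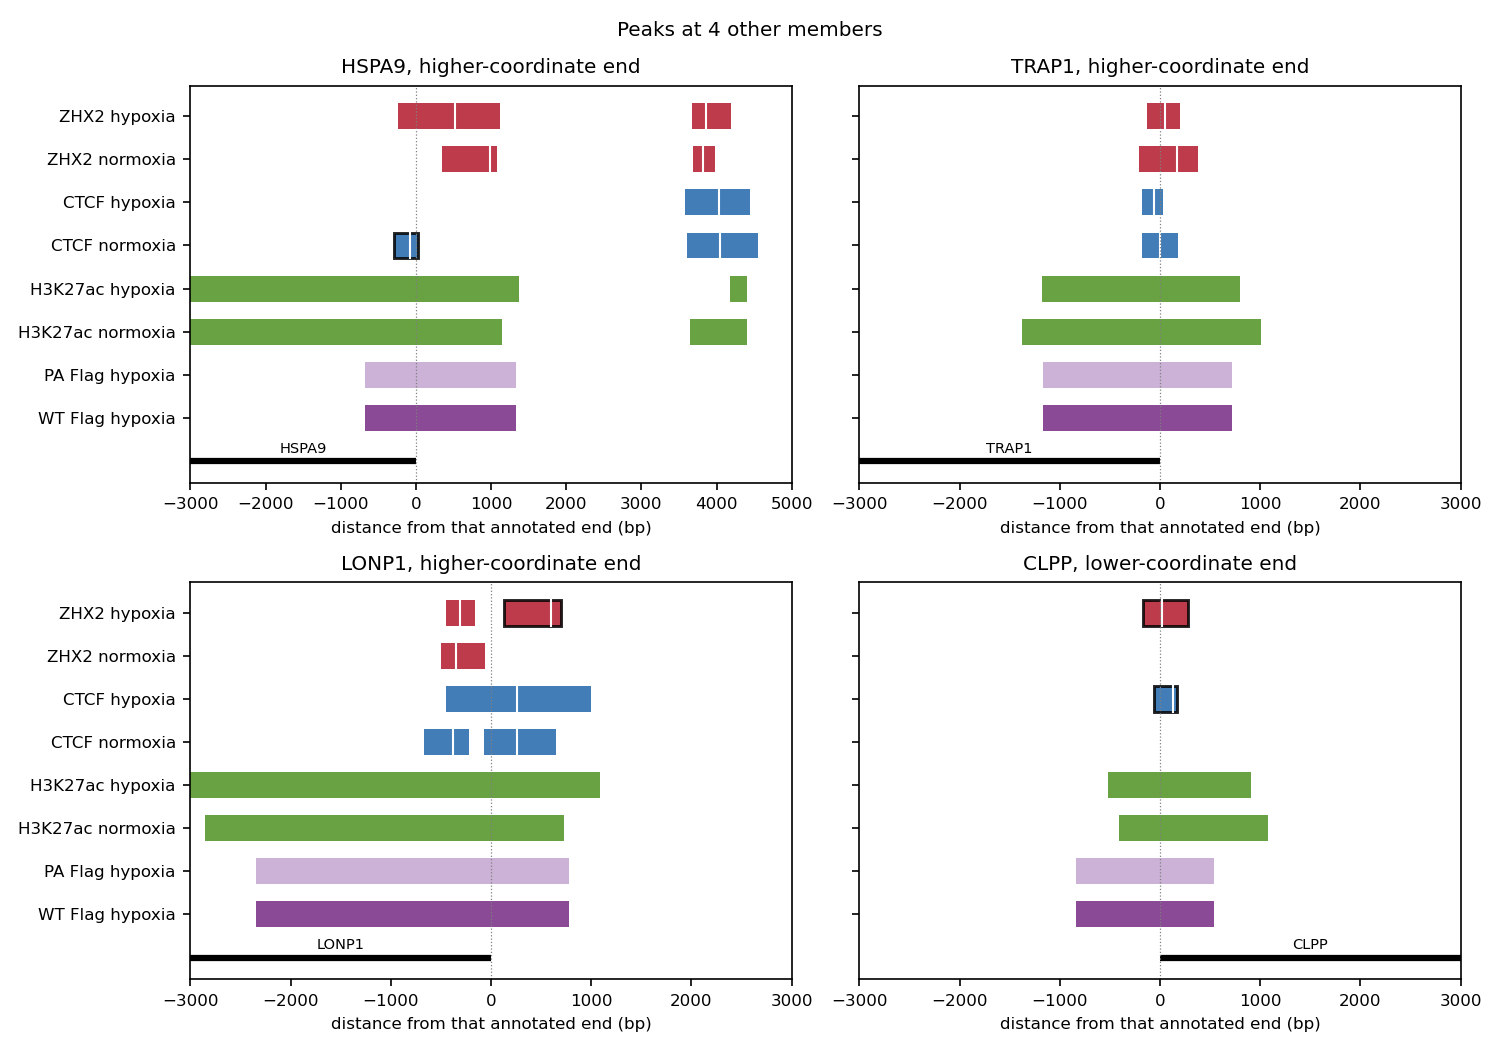
Peaks of the 8 lists around the annotated start of HSPA9, TRAP1 and LONP1 and the lower-coordinate end of CLPP, by distance from that end in bp (x axis), with 1 row per list, summits as white ticks and black outlines for peaks with no overlap in the other list. The outlined CTCF peak at HSPA9 is in normoxia, and the outlined ZHX2 and CTCF peaks at CLPP are in hypoxia.

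Among the proteases, LONP1 held the strongest CTCF peaks of the group. At its start, the CTCF peak chr19:5720001-5721454 had a fold of 214 in hypoxia, and chr19:5720386-5721103 had a fold of 237 in normoxia, with summits 2 bp apart. Beyond the other end, over RPL36, which encodes a ribosomal protein, the folds were 331 in hypoxia and 418 in normoxia, at the 99.4 percentile of each list. A further strong peak, over HSD11B1L, had a fold of 97.9 in hypoxia and 251 in normoxia. Because these neighbours lie within 5 kb of LONP1, their peaks cannot be assigned to 1 gene.

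In normoxia, 7 CTCF peaks lay at LONP1 against 4 in hypoxia, but wider hypoxia peaks spanned pairs of normoxia peaks, and 1 normoxia peak, chr19:5723794-5724031 with a fold of 5.89, had no hypoxia overlap. ZHX2 had 5 peaks at LONP1 in hypoxia, with folds of 4.29 to 4.97, and 4 in normoxia, with folds of 2.92 to 4.49. The fifth hypoxia peak, chr19:5720583-5721150, had a fold of 4.93, lay 130 bases outside LONP1 in CATSPERD, and had its nearest normoxia ZHX2 peak 190 bases away. The ZHX2 summits nearest the start fell in the printed LONP1 window, 4 bases inside the start in hypoxia and 41 bases inside it in normoxia. The CACGTG at bases 202 to 207 of that window is covered by the ZHX2 peaks of both conditions. The other CACGTG, at bases 39 to 44, is covered by the normoxia ZHX2 peak and by no hypoxia ZHX2 peak. Flag had 2 peaks at LONP1 in PA cells and 6 in WT cells, and H3K27ac 4 in each condition.

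At the authors' thresholds CLPP had ZHX2 peaks in hypoxia alone, as did 28.5% of protein-coding genes. The hypoxia ZHX2 peak at its lower end, chr19:6361360-6361813, had a fold of 5.82, at the 92.2 percentile, with the summit 16 bp inside the gene, and a further ZHX2 peak in ALKBH7 had a fold of 4.38. The nearest normoxia ZHX2 peak lay 81005 bases away from the peak at the lower end. A CTCF peak at the same end, chr19:6361472-6361704, was in hypoxia alone with a fold of 3.24, at the 1.69 percentile, and a −log10 q of 8.02. Its summit and the ZHX2 summit were 113 bp apart. In normoxia the one CTCF peak within 5 kb of CLPP lay 2606 bases beyond the gene in ALKBH7, with a fold of 4.12 and no hypoxia overlap. The −log10 q of that normoxia peak was 10.7, so with a cut of 10 CLPP kept CTCF in normoxia and not in hypoxia. H3K27ac was listed at both places in each condition, with folds of 10.9 and 18.2 in hypoxia and 11.1 and 17.8 in normoxia, and the Flag peaks were identical in PA and WT cells.

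**Figure D3:**
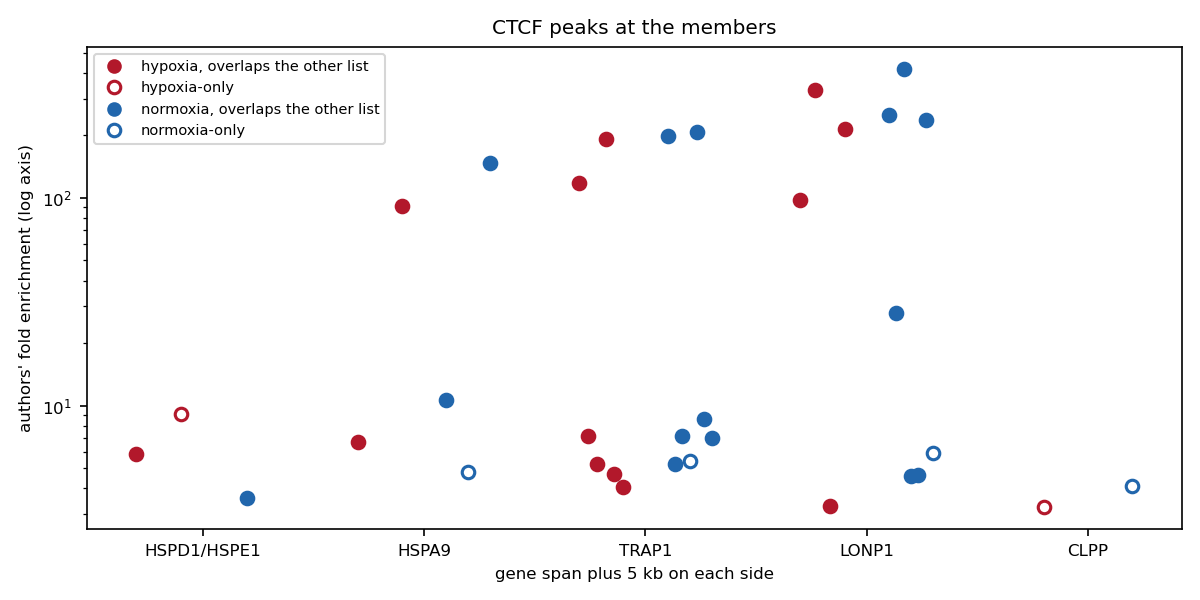
The authors' fold enrichment (log axis) of each CTCF peak within 5 kb of the genes, at 5 loci (x axis), hypoxia in red and normoxia in blue, with open points for peaks that have no overlap in the other list. The open points lie between 3.24 at CLPP and 9.09 at HSPE1, and the folds above 90 are all filled points at HSPA9, TRAP1 and LONP1.

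Counted over the group, hypoxia-only CTCF peaks lay at 3 members, HSPD1 and HSPE1 with the same peak and CLPP, beside 17.5% of protein-coding genes, and nothing is read from that count since the genes were chosen for it. Normoxia-only CTCF peaks lay at 4 members, HSPA9, TRAP1, LONP1 and CLPP, beside 35.2%. With CTCF lists of equal length, hypoxia-only peaks lay at 5 members and normoxia-only peaks at 0; in the upper 50% of each list both counts were 0, and with a 1 kb window normoxia-only peaks lay at 2. Hypoxia-only ZHX2 peaks lay at 2 members, LONP1 and CLPP, beside 54.1%, and a normoxia-only ZHX2 peak at 1, HSPA9, beside 15.3%. H3K27ac peaks in hypoxia alone lay at 3 members, beside 24.0%, and in normoxia alone at none, beside 11.8%. PA-only Flag peaks lay at none of the 6, beside 3.72% of all genes, and WT-only peaks at 4, beside 37.8%. At the authors' thresholds, CLPP was the one member with peaks of a protein in 1 condition alone. With a −log10 q of at least 10, ZHX2 stayed listed at 6 members in hypoxia and 3 in normoxia, and HSPD1 and HSPE1, whose normoxia ZHX2 peak has a −log10 q of 7.14, joined CLPP. At the authors' thresholds no member had ZHX2 in normoxia alone (2.33% of all genes), CTCF in hypoxia alone (1.05%) or in normoxia alone (3.17%), H3K27ac in hypoxia alone (1.85%) or in normoxia alone (0.716%), or Flag in WT cells alone (10.4%). No count over 6 genes at 5 loci was tested.

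The distinct peaks of the group show how far the conditions shared positions. Of 15 CTCF peaks in hypoxia 13 overlapped the normoxia list, beside 93.0% of the whole list. Of 19 in normoxia 15 overlapped the hypoxia list, beside 82.3%. Of 11 ZHX2 peaks in hypoxia and 9 in normoxia, 8 of each were shared, beside 27.4% and 62.6% of the whole lists. The median distance between summits of overlapping peaks was 20 bp for CTCF (15 pairs, 2 to 801 bp) and 43 bp for ZHX2 (8 pairs, 6 to 467 bp). All 8 PA Flag peaks were in the WT list, which held 15 peaks. Over the whole PA list 94.7% were shared, and 15163 peaks had the same start and end in the WT list.

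ZHX2 and CTCF peaks coincided at these genes most often at LONP1. In hypoxia 9 of the 11 ZHX2 peaks overlapped a CTCF peak, beside 45.6% of the whole ZHX2 list, and in normoxia 5 of 9, beside 43.6%. All 5 ZHX2 peaks at LONP1 in hypoxia were among the 9, and some lay over its neighbours HSD11B1L and RPL36. Each other locus also held such an overlap in hypoxia, and the normoxia count was near the share of the list. With summits within 250 bp as the rule, 6 of the 11 hypoxia peaks and 4 of the 9 normoxia peaks were counted. The share of the whole list under that rule was not computed, so no difference between the conditions is read from these counts. Every ZHX2 peak of the group lay on H3K27ac of the same condition, beside 72.9% of the list in hypoxia and 56.7% in normoxia. In hypoxia 10 of the 11 ZHX2 peaks overlapped a WT Flag peak, beside 54.2% of the list. These list shares cover every ZHX2 peak, also those far from genes. No share was computed over ZHX2 peaks within 5 kb of genes. The overlapping ZHX2 and CTCF summits were a median of 113 bp apart in hypoxia and 201 bp in normoxia.

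**Figure D4:**
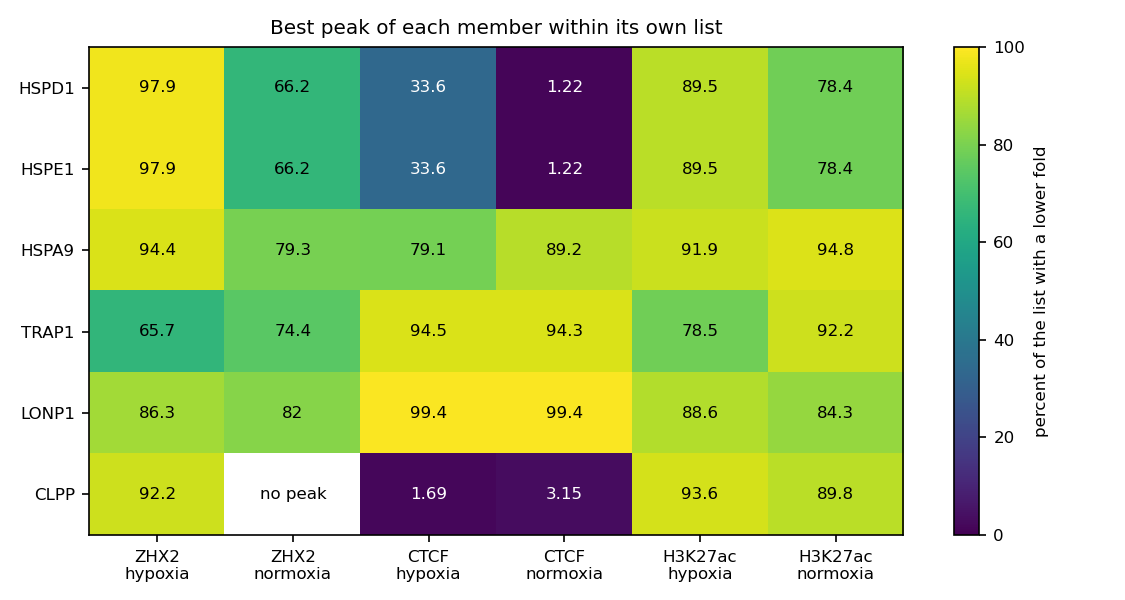
For each gene (rows) and each list with a fold (columns), the percentile of its best peak, that is the percent of the list with a lower authors' fold, in colour and as a number. HSPD1 and HSPE1 share their best peaks, with ZHX2 at 97.9 in hypoxia and CTCF at 1.22 in normoxia, and CLPP has no ZHX2 peak in normoxia.

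In the order of their best ZHX2 percentile in hypoxia, the members ran HSPD1 with HSPE1 at 97.9, HSPA9 at 94.4, CLPP at 92.2, LONP1 at 86.3 and TRAP1 at 65.7. For CTCF in hypoxia the order was LONP1 at 99.4, TRAP1 at 94.5, HSPA9 at 79.1, HSPD1 with HSPE1 at 33.6 and CLPP at 1.69. With 1 list per group, no spread is available to say which neighbours in these orders differ. The genes most like HSPD1 over the 6 percentiles, among 11809 genes with the same presence in the Flag lists, were ANO8, at a Euclidean distance of 13.9, HTATSF1 at 14.5, LOC124900214 at 21.8, and LRRC57 and HAUS2, which share their peaks, at 23.5. ANO8, LOC124900214, LRRC57 and HAUS2 also had a hypoxia-only CTCF peak, as did 17.5% of protein-coding genes, and HTATSF1 had none. The CTCF percentiles of both conditions enter the distance, so such a peak is partly set by the choice and nothing is read from it. ANO8 belongs to the anoctamin family, HTATSF1 encodes a splicing-associated factor, and HAUS2 encodes a subunit of the augmin complex. The median distance was 113, and CLPP stood at 74.7, HSPA9 at 101, TRAP1 at 117 and LONP1 at 120.

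The wider machinery was read from lists chosen for function. Of 30 other co-chaperone, protease, scaffold and stress regulator genes of the mitochondrial machinery, ZHX2 was listed at 28 in hypoxia and at 15 in normoxia, beside 68.6% and 42.3% of all genes. The 30 include 4 stress regulators, ATF4, ATF5, DDIT3 and HSF1, which encode transcription factors. A hypoxia-only ZHX2 peak lay at 22 (73.3%, beside 54.1% of all genes) and a normoxia-only one at 4 (13.3%, beside 15.3%). For CTCF, 9 of the 30 had a hypoxia-only peak (30.0%, beside 17.5% of all genes) and 10 a normoxia-only peak (33.3%, beside 35.2%). The hypoxia-only CTCF peaks lay at 3 of the 4 stress regulators, 1 of 8 co-chaperones, 1 of 7 processing peptidases and 1 of 3 scaffolds. They also lay at 3 of the 8 genes grouped with the proteases, a group that includes the unfoldase CLPX and the disaggregase CLPB. The highest folds among the hypoxia-only CTCF peaks were 5.57 at MIPEP, which processes imported precursors, 5.20 at CLPX, the unfoldase partner of CLPP, and 4.68 at PHB2, a prohibitin of the inner membrane. Lower values were 4.01 at DDIT3 and 3.12 at ATF4, transcription factors of the stress response, and 3.97 at CLPB, a mitochondrial disaggregase. Others were 3.36 at HSF1, the heat shock factor, 3.35 at DNAJC19, an import motor subunit, and 3.33 at SPG7, an inner membrane protease. All were below the 9.09 of the peak in HSPE1, which was itself the basis of the choice. Less than 500 bp from the hypoxia-only peak at CLPX, chr15:65184216-65184455, lay a normoxia-only one, chr15:65183834-65184059, with a fold of 5.02. The same held at HSF1, with chr8:144291675-144292330 in hypoxia and chr8:144291189-144291432, with a fold of 3.97, in normoxia. Distances to the nearest normoxia peak were not taken for the other genes. DNAJC19 was the one gene of the 30 with CTCF in hypoxia alone, and none had CTCF in normoxia alone.

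Counts for the cytosolic chaperonin and other chaperones are given beside 17.5% of all genes with a hypoxia-only and 35.2% with a normoxia-only CTCF peak. Of the 8 subunits of the CCT chaperonin, which folds actin and tubulin, 1 had a hypoxia-only CTCF peak, TCP1 with a fold of 4.01, and 5 a normoxia-only one. TCP1 had CTCF in hypoxia alone, and CCT5, CCT7 and CCT8 in normoxia alone. Of 15 cytosolic and endoplasmic reticulum chaperones, 11 had a hypoxia-only CTCF peak and 4 a normoxia-only one. The highest folds among these hypoxia-only peaks were 5.76 at HSPA1A, 5.20 at HSP90AA1, 4.90 at HSPH1 and 4.83 at DNAJA1, all cytosolic chaperones or co-chaperones. HSP90B1, the HSP90 of the endoplasmic reticulum, had CTCF in hypoxia alone with a fold of 2.58. HSPA1A has a near-identical neighbouring copy, HSPA1B, so its reads may be split between them. Hypoxia-only ZHX2 peaks lay at 7 of the 8 CCT genes and 11 of the 15 other chaperones, beside 54.1% of all genes.

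**Figure D5:**
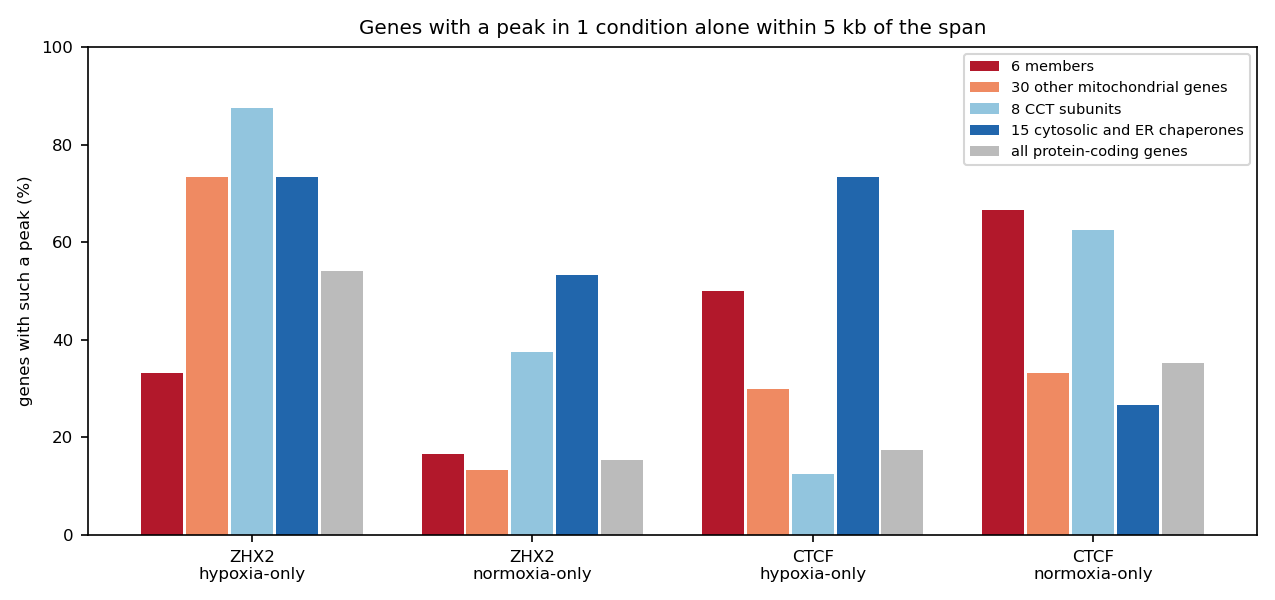
The percent of genes in each list (y axis) with a ZHX2 or CTCF peak that has no overlap in the other condition (x axis), for the 6 genes of the group, 30 other genes of the mitochondrial machinery, 8 CCT subunits, 15 cytosolic and endoplasmic reticulum chaperones and all protein-coding genes. The 30 include 4 stress regulators that encode transcription factors. Hypoxia-only CTCF peaks lay at 50.0% of the 6 genes chosen for such a peak, 30.0%, 12.5% and 73.3% of the lists in that order, and 17.5% of all genes.

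The 5 kb window set which peaks were counted. The peaks just inside it lay 4179 bases from a gene span, H3K27ac peaks in hypoxia at HSPA9, with a fold of 3.16, and at LONP1, with a fold of 11.5. The nearest outside lay 5043 bases away, a CTCF peak at HSPA9 in hypoxia with a fold of 74.6. Sequence copies are a further limit at the chaperonin genes, since 22 pseudogenes of HSPD1 and 28 of HSPE1 are annotated. CTCF peaks overlapped 1 HSPD1 pseudogene and 1 HSPE1 pseudogene in hypoxia, and 1 HSPE1 pseudogene in normoxia. ZHX2 and Flag peaks overlapped 0 of these pseudogenes.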

How the data were processed

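Peak lists of 16 immunoprecipitated samples in 8 groups of 2 were used. The submitters' processing notes name cutadapt, Bowtie2, MACS2 and the build GRCh38 (hg38), without versions. Neither the read depth nor the way in which the 2 samples of a group and the samples without antibody were combined is stated, which leaves the precision of a single peak unknown. The score, the fold enrichment (a ratio over background) and the −log10 q of each ZHX2, CTCF and H3K27ac peak are the authors' deposited values; the score was the whole part of 10 times the −log10 q. The lowest −log10 q was 1.30 for ZHX2 in hypoxia and in normoxia, 5.09 and 5.00 for CTCF, and 3.47 and 3.49 for H3K27ac. Flag lists held positions alone.

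Peaks on chromosomes 1 to 22 and X were intersected with gene spans plus 5 kb (RefSeq GRCh38.p14) with Python 3.11.15, pandas 2.3.3 and numpy 2.4.6; figures used matplotlib 3.10.9. Tested on simulated data, 6000 of 6000 genes with a planted peak were recovered among 19974. The members and lists were chosen with earlier results of these data known. All 6 members were named; from wider lists, up to 4 genes a list by fold of a hypoxia-only CTCF peak, genes with CTCF in 1 condition alone, and the 5 most like HSPD1. No test was run. Alternatives were other windows, thresholds, overlap rules and backgrounds.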

Additional observations from a re-analysis of the deposited data

How the results depend on the processing

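No paired analysis was possible because each group has 1 peak list without values per replicate, and leaving out a replicate was not run for the same reason. Of 120 recomputed values of 34 counts and shares, 87 moved by at most 1.5 times or within the interval of the share, and 33 moved further. The cause was not tested beyond what each setting does by construction.

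With a −log10 q of at least 10, hypoxia-only ZHX2 peaks lay at 4 members (6 distinct peaks), normoxia ZHX2 peaks at 3, normoxia-only ZHX2 peaks at 0 (0 distinct peaks), and hypoxia-only H3K27ac peaks at 1 (1 distinct peak). At that cut CTCF lay at 5 members in hypoxia and 4 in normoxia. HSPD1 and HSPE1, whose normoxia CTCF peak has a −log10 q of 8.86, then had CTCF in hypoxia alone, and CLPP had it in normoxia alone. In the upper 50% of each list, CTCF lay at 3 members in hypoxia and 3 in normoxia, hypoxia-only CTCF at 0, normoxia-only CTCF at 0, normoxia-only ZHX2 at 0 and hypoxia-only H3K27ac at 1, so the HSPE1 peak was not among the stronger 50% of its list. With a 1 kb window, normoxia-only CTCF peaks lay at 2 members (2 distinct peaks), and 2 normoxia ZHX2 peaks overlapped CTCF. With summits or midpoints within 250 bp as the rule for sharing, there were 4 hypoxia-only and 8 normoxia-only CTCF peaks, 2 normoxia-only ZHX2 peaks, and 12 hypoxia-only and 5 normoxia-only H3K27ac peaks.

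Of the settings added after seeing the data, counting peaks less than 500 bp apart as shared left 1 hypoxia-only CTCF peak, at CLPP, and 4 WT-only Flag peaks. With the CTCF lists taken at equal length by −log10 q, hypoxia-only CTCF lay at 5 members, normoxia CTCF at 3 and normoxia-only CTCF at 0. Against genes with spans in the range of the members' spans, the background was 67.6% for ZHX2 in hypoxia, 51.9% hypoxia-only, 41.0% in normoxia and 13.3% normoxia-only, and for CTCF 82.7% in hypoxia, 15.2% hypoxia-only and 29.3% normoxia-only.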
